A study of Mus musculus with 142 samples.

Results

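The clustered protocadherin locus of the mouse lies on chromosome 18 (mm10) and was taken here as the 22 windows of 50 kb from base 36900001 to 38000000, out of 49264 windows on the 19 autosomes, with 1 Mb (20 windows) on each side for context. These windows were chosen by position alone. All 22 are in the table, and 18 of them had a value on both alleles in all 53 clones. The lowest number was 39 clones, in the window at 37.85 to 37.90 Mb.

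Clustered protocadherins are cell adhesion molecules of the cadherin superfamily, known best from neurons, in which each cell displays its own combination of them. In Pcdha and Pcdhg, each variable exon has a promoter of its own and is spliced to constant exons shared by the whole subcluster, whereas each Pcdhb gene is a single exon. Promoters of most members are chosen at random, and separately on each of the homologs, while the C-type genes at the ends of Pcdha and Pcdhg are used more regularly. Replication timing (RT) is the order in which chromosomal domains are copied in S phase, and early replication is generally found in gene-rich, active chromatin.

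RT was profiled by E/L Repli-seq in F121-9 embryonic stem cells (mESCs), grown in 2i + LIF. These cells are an F1 hybrid of a Mus musculus laboratory strain and Mus musculus castaneus (CAST), whose SNPs separate the homologs. The homolog of the laboratory strain is called musculus throughout, as in the paper. Cells were labelled with BrdU for 2 h and sorted into early and late S phase, and the value in each window is log2 of early over late reads, so that higher values mean earlier replication. The 66 libraries came from 53 clones of 26 cell lines, with 1 to 5 clones per line. Every line carries CRISPR-mediated deletions in the Dppa2/4 domain of chromosome 16, so there is no unedited line among them, and both homologs of chromosome 18 were outside the targeted sites in every clone. By the profile names, the deleted homolog of chromosome 16 is musculus in most lines and CAST in CR11.8k. CTSS was deleted on either homolog, depending on the clone. The CAST homolog is also marked as edited in ATSS.BTSS.CTSS and in some clones of A.B.COSN123, AOSN.B.COSN123 and BTSS.CTSS. The deletions are named after elements A, B, C and Z of that domain and the sites within them (OSN sites, TSSs or stretches in kb). Lines without COSN123 are A.COSN12, AOSN.COSN12, ATSS.BTSS.CTSS, BTSS, BTSS.CTSS, CL20k, COSN1, COSN1.2.8k, COSN12, CR11.8k, CR13.4k, CR14.6k, CTSS and Z.B.C (14 lines, 29 clones). Lines with it are A.B.COSN123, A.BOSN1.COSN123, A.BOSN12.BTSS.COSN123, A.BOSN12.COSN123, A.COSN123, AOSN.B.COSN123, AOSN.BOSN12.COSN123, AOSN.COSN123, BOSN1.COSN123, BOSN12.COSN123, COSN123 and Z.AOSN.COSN123 (12 lines, 24 clones). The paper recovered 1 COSN123 clone, which the labels name A10, and describes further deletions made in its background. These 12 lines are therefore taken to descend from 1 clone. For AOSN.B.COSN123, which the paper's text does not describe, this rests on the line name. The paper also states that COSN12 and COSN123 were made in the COSN1 line. The grouping follows the line name. CR13.4k and CR14.6k, listed as without COSN123, also remove every OSN site of element C, and Z.B.C removes all of C. The deposited values are smoothed over 300 kb, so neighbouring windows share reads and are not independent observations. Only ratios were at hand, so the depth of each library is unknown, and error is given as the spread between clones. The table has no expression values, so the labelled cell type was not checked against marker genes, and whether a protocadherin was expressed in these clones is not known here.

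The GENCODE annotation lists 58 clustered protocadherin genes here, all on the plus strand. Pcdha spans 36930184 to 37187661 with 14 entries, Pcdhb spans 37264938 to 37524479 with 22, and Pcdhg spans 37661793 to 37841873 with 22. Of the 58, 57 are annotated as protein-coding and Pcdhgb8 as a polymorphic pseudogene. The symbol Pcdha11 stands for 2 gene IDs. By the midpoints of the windows, 5 windows fell in Pcdha, 5 in Pcdhb and 4 in Pcdhg. The windows that hold the starts of Pcdha1 and Pcdhb22 have midpoints just outside their subclusters. The means and tests over Pcdha and Pcdhb therefore leave these windows out, while counts of genes by their start include them. Both windows replicated earlier than the mean of their subcluster given below.

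The locus held a late-replicating trough between early-replicating flanks. The left flank had a mean RT of 1.29 ± 0.07 and the right flank 1.17 ± 0.13 (mean of both alleles, SD, n = 53 clones). RT fell through Pcdha, was lowest at the border of Pcdha and Pcdhb, rose through Pcdhb and was early again over Pcdhg. Over Pcdha, the clone values (mean of both alleles) had a lowest value of −0.54, a median of −0.02 and a highest of 0.49. Over Pcdhb they ran from −0.80 through a median of −0.24 to 0.19, and over Pcdhg from 0.88 through 1.10 to 1.28. The lowest clone over Pcdhg lay above the highest over Pcdha or Pcdhb. The mean was 0.02 ± 0.20 for Pcdha, −0.23 ± 0.19 for Pcdhb and 1.10 ± 0.09 for Pcdhg (SD, n = 53).

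All 3 pairs of subclusters differed beyond the spread between clones. Pcdhb was later than Pcdhg in 53 of 53 clones, by 1.33 ± 0.22 on average (difference Pcdhb minus Pcdhg −1.33), and Pcdha was later than Pcdhg in 53 of 53, with a difference of −1.08 ± 0.24. Pcdha was earlier than Pcdhb in 53 of 53 clones, with a difference of 0.25 ± 0.10. In each case the two-sided sign-flip permutation test over clones gave an adjusted p of 1e-05, the smallest that 100000 resamples can give. The ordering was thus Pcdhb, Pcdha, Pcdhg from late to early, with a far larger step before Pcdhg than before Pcdha.

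**Figure D1:**
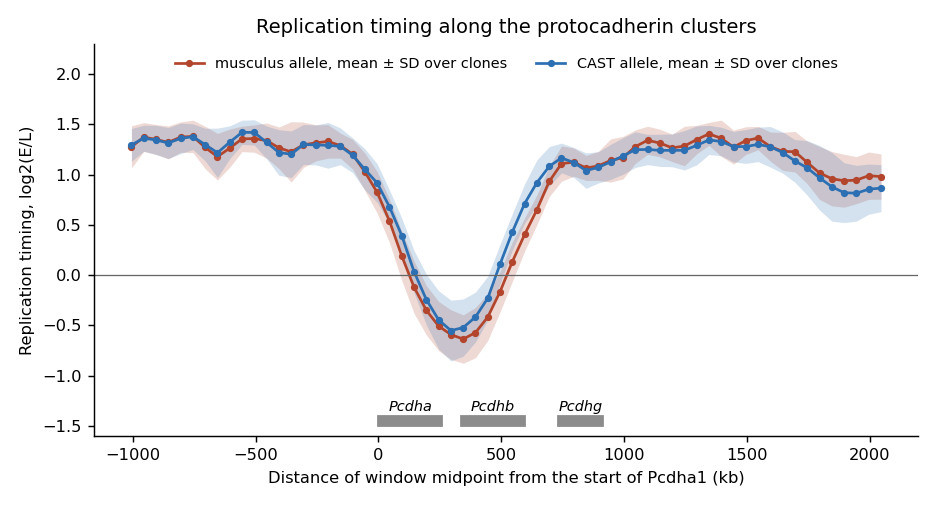
Mean replication timing, log2(E/L), of the musculus allele (red) and the CAST allele (blue) in each 50 kb window, against the distance of the window's midpoint from the start of Pcdha1 in kb. Bands are ± SD over up to 53 clones and grey bars mark the 3 subclusters. Both alleles fall below 0 between Pcdha and Pcdhb, and the red curve lies below the blue one on both slopes.

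The latest window on the mean of both alleles was 37.25 to 37.30 Mb, which holds the starts of Pcdhb1 and Pcdhb2. There the musculus allele had a mean of −0.64 ± 0.24 and the CAST allele −0.52 ± 0.28 (SD, n = 53). The CAST allele alone was lowest 1 window to the left, at 37.20 to 37.25 Mb, with −0.55 ± 0.30. No protein-coding gene starts in that window or in the one before it. The earliest member window was the last one, from 37.95 Mb, with a mean of 1.26 over both alleles (n = 44 clones with both). It holds the start of Hdac3, which encodes a histone deacetylase.

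Among the genes at the ends of the subclusters, timing followed their position. Pcdha1, the first variable exon of Pcdha, starts in a window with a mean RT of 0.82 ± 0.21 on musculus and 0.92 ± 0.19 on CAST. The C-type gene Pcdhac1 starts in a window of −0.12 ± 0.26 on musculus and 0.03 ± 0.21 on CAST. The next C-type gene, Pcdhac2, starts in one of −0.35 ± 0.25 on musculus and −0.24 ± 0.25 on CAST. The C-type genes of Pcdhg lay on the early side instead. Pcdhgc3, Pcdhgc4 and Pcdhgc5 start in 1 window, with a mean of 1.09 ± 0.15 on musculus (n = 51) and 1.07 ± 0.16 on CAST (n = 52). C-type genes were thus found both in the trough and in the early stretch.

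RT rose from the first Pcdhb gene to the last and on into Pcdhg. Pcdhb22, the last gene, starts in a window of 0.40 ± 0.17 on musculus and 0.71 ± 0.20 on CAST (n = 53). Taf7, a subunit of the general transcription factor TFIID, and Slc25a2, a mitochondrial carrier of the ornithine transport family, share the next gene-bearing window, at 0.93 ± 0.15 on musculus and 1.08 ± 0.20 on CAST. Pcdhga1, the first gene of Pcdhg, starts at 1.11 ± 0.18 on musculus and 1.17 ± 0.15 on CAST. By the mean of the window that holds the start, 14 of 22 Pcdhb genes were late (below 0) on the musculus allele and 8 of 22 on the CAST allele. For Pcdha it was 2 of 14 genes on musculus and 1 of 14 on CAST, and for Pcdhg 0 of 21 protein-coding genes on either allele.

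Genes outside the clusters were early on both alleles. On the left, the windows of Nrg2, Hbegf (both ligands of the EGF receptor family), Cd14 (a co-receptor for bacterial lipopolysaccharide), Hars (histidyl-tRNA synthetase) and Zmat2 (a zinc finger protein) had musculus means between 1.27 and 1.38. On the right, the windows of Diaph1 (a formin), Hdac3, the non-clustered protocadherins Pcdh1 and Pcdh12, Ndfip1 (an adaptor of Nedd4-family ubiquitin ligases) and Spry4 (an inhibitor of receptor tyrosine kinase signalling) had musculus means between 1.17 and 1.40. Farther right, Arhgap26 starts at 1.12 ± 0.21 on musculus and 1.07 ± 0.27 on CAST. Fgf1 (a fibroblast growth factor) starts at 0.99 ± 0.24 on musculus and 0.85 ± 0.25 on CAST.

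The windows also differed in base composition. G+C content had a median of 40.5% in the Pcdha windows and 40.4% in the Pcdhb windows, against 44.5% over Pcdhg and 45.8% in the flanks. Across the 62 windows of the locus and its flanks, mean RT and G+C content had a Pearson r of 0.60. This is a description across smoothed neighbouring windows. The number of protein-coding starts per window, in contrast, had an r of −0.18 with RT, with 67 starts in the 22 member windows and 34 in the 40 flanking ones.

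Compared with other tandem gene families, the protocadherin windows were intermediate. Their mean over both alleles was 0.41, against −0.51 in 330 windows that hold the start of an olfactory receptor gene on chromosomes 2, 7 and 9, and 1.25 in the 10 windows of the 4 Hox clusters. The difference from the olfactory receptor windows was 0.92 ± 0.15 and positive in 53 of 53 clones. That from the Hox windows was −0.85 ± 0.15 and negative in 52 of 52 clones with a value. Both had an adjusted p of 1e-05 in the sign-flip permutation test, which measures the spread between clones and not between loci. The protocadherin mean averages a trough and an early stretch, as described above. Unlike the olfactory receptor set, it includes windows without a start of the family, such as those of Diaph1 and Hdac3.

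The musculus allele replicated later than the CAST allele over Pcdha and Pcdhb, while the mean over Pcdhg showed no difference that passed the test. Over Pcdhb the musculus values had a lowest clone of −0.98, a median of −0.36 and a highest of 0.09, and the CAST values a lowest of −0.62, a median of −0.15 and a highest of 0.29. The distributions overlapped between alleles, but within clones musculus was below CAST in 52 of 53, by −0.21 ± 0.10 (mean musculus minus CAST difference, SD). Over Pcdha the difference was −0.13 ± 0.09 and negative in 51 of 53 clones. Over all 22 windows it was −0.12 ± 0.07, negative in 51 of 53. The sign-flip permutation test gave an adjusted p of 1.33e-05 in each of these 3 intervals. All clones come from the same hybrid line, so this p measures the spread between its clones. Strain and parent of origin of the homologs cannot be told apart. Over Pcdhg the difference was −0.0025 ± 0.14, negative in 30 of 53 clones (permutation test, adjusted p = 0.897). Its first window, 37.65 to 37.70 Mb, had −0.06 ± 0.16 (limma adjusted p = 0.022), and its other windows were not called.

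Averaged by cell line, the difference was below 0 in 26 of 26 lines over Pcdha and in 26 of 26 over Pcdhb. Line means ranged from −0.30 to −0.03 over Pcdha and from −0.36 to −0.03 over Pcdhb. Within each of the 5 forms in which library names are written, the mean was also below 0, from −0.19 to −0.09 over Pcdha and from −0.24 to −0.16 over Pcdhb, with an adjusted p of 0.031 or less in each (permutation tests, exact in the 2 smallest forms). The size of the allele difference itself varied with the subcluster. It was more negative over Pcdhb than over Pcdhg in 50 of 53 clones (by −0.20 ± 0.15) and more negative over Pcdha than over Pcdhg in 44 of 53 (by −0.13 ± 0.16), each with an adjusted p of 1.5e-05 in the sign-flip permutation test. Pcdha and Pcdhb differed by 0.07 ± 0.11, with musculus the less delayed over Pcdha in 41 of 53 clones (permutation test, adjusted p = 2e-05). These pairs were added after the values had been seen. Within single forms of library name, Pcdha and Pcdhg were no longer separated in 3 of 5 forms (−0.07, −0.02 and −0.10, permutation test, exact for the last 2, adjusted p = 0.12, 0.38 and 0.19). Pcdha and Pcdhb were not separated in 2 (0.05 and 0.04, permutation test, adjusted p = 0.21 and 0.18).

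In single windows, limma called 15 of the 21 member windows tested between the alleles (adjusted p under 0.05 over all windows), all 15 with CAST earlier. Of all 39612 windows tested, 65.6% were called and 35.9% were called with CAST earlier, so the share of members called was close to that of the genome, while their direction ran one way. No member reached a difference of 0.5, against 6.00% of all windows that were called with at least that difference. The median size of the difference was 0.11 in member windows and 0.10 over all windows. In the flanks, 13 of 39 windows were called with musculus earlier and 2 with CAST earlier. The called windows in the clusters formed an unbroken run from the first member window to 37.70 Mb, apart from 37.20 to 37.25 Mb (−0.04 ± 0.22, limma adjusted p = 0.22). As smoothed neighbours, these windows are not independent, so their shared direction does not count as 15 separate observations.

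The difference was largest on the right slope of the trough. In the window of Pcdhb22, 37.50 to 37.55 Mb, it was −0.31 ± 0.20 (SD, n = 53; limma adjusted p = 1.23e-16), from a lowest clone of −1.06 to a highest of 0.17, and 52 of 53 clones were below 0. In the gene-free window beside it, 37.55 to 37.60 Mb, all 53 clones were below 0, with a mean of −0.27 ± 0.17 and a highest value of −0.01. The left slope had a smaller peak of −0.20 ± 0.18 at 37.00 to 37.05 Mb, where Pcdha11 and Pcdha12 start and 48 of 53 clones were below 0. The highest difference among members was 0.04 ± 0.23 in the last window, from 37.95 Mb (limma adjusted p = 0.35).

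**Figure D2:**
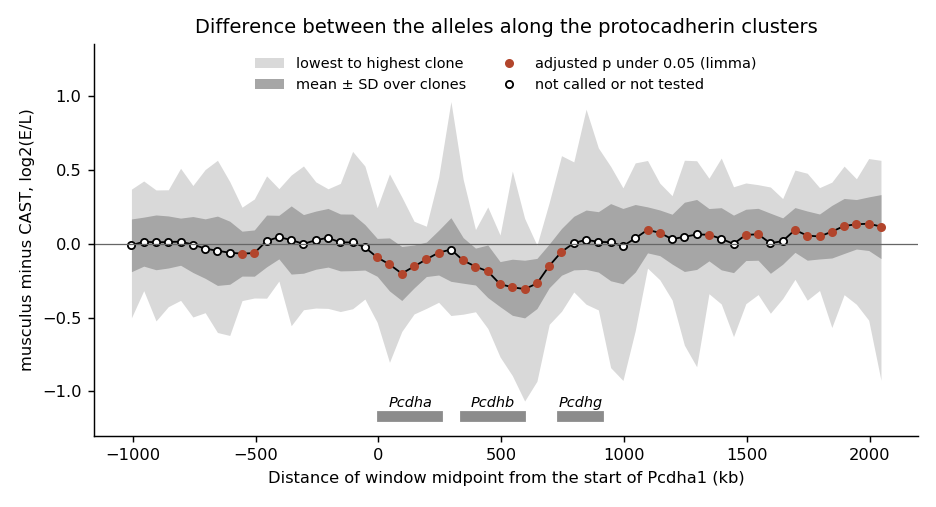
Difference of the musculus allele from the CAST allele in log2(E/L) per 50 kb window, against the distance from the start of Pcdha1 in kb. The black line is the mean over clones, the dark band ± SD, the light band the range from the lowest to the highest clone, red points windows called by limma and open points the others. The mean dips to −0.20 within Pcdha and to −0.31 at the end of Pcdhb, and is near 0 over Pcdhg.

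Measured as a length, the late trough was wider on the musculus allele. The stretch with RT below 0, from the points where each clone's curve crossed 0 between window midpoints, was 389 ± 76 kb on musculus and 311 ± 86 kb on CAST (SD, n = 53). On musculus it ran from 183 through a median of 408 to 555 kb, and on CAST from 0 through 335 to 416 kb. CAST had the shorter stretch in 51 of 53 clones, and by 77 ± 43 kb on average. The exceptions were ATSS.BTSS.CTSS clone A8 and BTSS clone A10. Both edges were shifted. In the 52 clones with a late stretch on both alleles, the left edge lay 30 ± 25 kb farther left on musculus (difference −30.0 kb) and the right edge 45 ± 26 kb farther right. The lowest point of the trough differed less, with −0.68 ± 0.27 on musculus and −0.58 ± 0.30 on CAST. These lengths were defined after the curves had been seen and carry no test.

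Clones differed in the depth of the trough, and their homologs moved together. The deepest clone was AOSN.BOSN12.COSN123 clone D6, with −0.98 on musculus and −0.62 on CAST over Pcdhb. The next was A.BOSN12.BTSS.COSN123 clone C4, with −0.83 on musculus and −0.49 on CAST. At the other end, A.B.COSN123 clone 2E.1 had 0.09 on musculus and 0.29 on CAST over Pcdhb, and was the only clone whose CAST allele stayed above 0 throughout. Across the 53 clones, the musculus and CAST values had a Pearson r of 0.91 over Pcdha (Spearman's rank coefficient 0.84) and 0.87 over Pcdhb (rank coefficient 0.81), with a permutation p of 1e-05 and an adjusted p of 1.33e-05 over 4 intervals. Without the 2 clones farthest from the median, r was 0.88 and 0.85. Within the 5 forms of library name, r ranged from 0.80 to 0.97 over Pcdha and from 0.46 to 0.96 over Pcdhb. Over Pcdhg, r was 0.30 (rank coefficient 0.37, permutation test, adjusted p = 0.027 for r and 0.0064 for the rank coefficient), and 0.31 without the 2 farthest clones. Within forms, r over Pcdhg was 0.83, 0.57 and 0.92 in forms 1 to 3 but −0.43 in form 4 and −0.03 in form 5, so the relation over Pcdhg differed in sign between forms. Both alleles of a clone come from the same library and many clones share descent, and the part of either in these correlations was not tested.

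**Figure D3:**
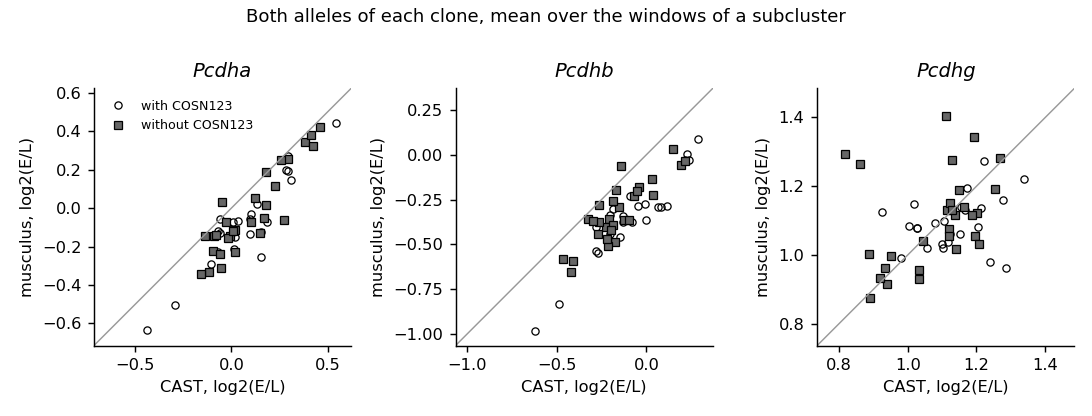
Mean log2(E/L) of the musculus allele (vertical) against the CAST allele (horizontal) over the windows of Pcdha, Pcdhb and Pcdhg, 1 point per clone. Open circles are the 24 clones with COSN123, filled squares the 29 without, and the grey line marks equal values. Points lie along the line and mostly below it for Pcdha and Pcdhb (51 and 52 of 53 below), and on both sides of it for Pcdhg (30 of 53 below).

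The spread of the allele difference between clones was no larger here than elsewhere. The SD of the musculus minus CAST difference over clones had a median of 0.18 in member windows, 0.18 in the other windows of chromosome 18 and 0.18 over all windows. It was lowest at 37.10 to 37.15 Mb (0.12), where Pcdhac2 starts, and highest at 37.85 to 37.90 Mb (0.26), the window with the fewest clones. Per clone, the mean absolute deviation of the difference from its mean over clones was 0.12 in the member windows and 0.14 in the rest of chromosome 18. The cluster minus the rest was −0.018 ± 0.035, negative in 40 of 53 clones (sign-flip permutation test, p = 0.00064). For the alleles taken singly the same contrast was −0.0033 on musculus (permutation test, p = 0.65) and 0.0015 on CAST (p = 0.83). The SD of each allele's own RT was largest in the trough, at up to 0.26 on musculus and 0.30 on CAST, and smallest over Pcdhg, at 0.12 on musculus and 0.15 on CAST.

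Repeat libraries with a replicate number in the labels, at hand for 11 clones (24 libraries), set the error for differences between clones. They are called cultures here. The paper describes separate cultures for the COSN123 clone, while the labels of the other clones give the number alone. Whether those were separate cultures or technical repeats is not known here. Over Pcdhb, the mean of both alleles had an SD of 0.09 between cultures of a clone, and the clone means an SD of 0.29, from −0.66 to 0.19. In A.BOSN12.BTSS.COSN123 clone C4, for example, the cultures had musculus values of −0.90 and −0.77 and CAST values of −0.58 and −0.40. In A.B.COSN123 clone 2E.1 they had 0.05 and 0.13 on musculus and 0.25 and 0.34 on CAST, so these clones were apart on both alleles. The largest gap between cultures was in AOSN.B.COSN123 clone 5A.2, with −0.24 and −0.64 on musculus and −0.04 and −0.37 on CAST. CAST was above musculus over Pcdhb in all 24 libraries and over Pcdha in 22 of 24.

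**Figure D4:**
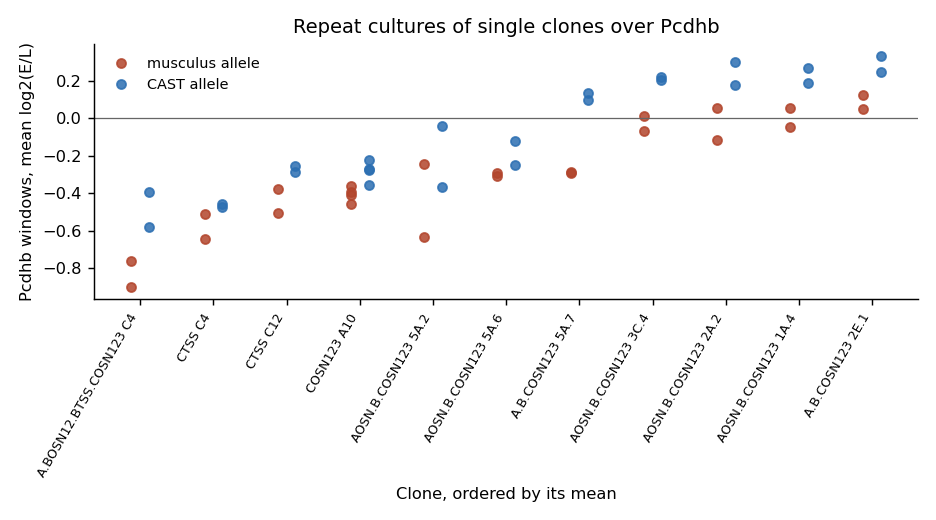
Mean log2(E/L) over the Pcdhb windows in each repeat culture of 11 clones (24 libraries), with the musculus allele in red and the CAST allele in blue, ordered by clone mean. Cultures of a clone mostly lie closer together than clones do, and the alleles rise together from A.BOSN12.BTSS.COSN123 C4 to A.B.COSN123 2E.1.

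On the mean of both alleles, the limma F test between clones called 13 of 19 member windows, against 46.9% of all windows tested. On musculus alone it called 12 of 19 (33.6% of all windows) and on CAST alone 10 of 19 (40.1%). The 13 windows were the first of the locus and those from 37.00 to 37.60 Mb, and none of the Pcdhg windows was called (adjusted p of 0.30 or more). On the musculus minus CAST difference, limma called 0 of 19 member windows, against 3.09% of all windows, and the lowest adjusted p among members was 0.16. At an unadjusted p under 0.05, 1 of the 19 passed, against 20.2% of all windows. The difference had an SD between cultures of 0.08 over Pcdhb and 0.13 over Pcdhg, so that allele differences of single clones within that spread were not detectable with these cultures.

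Among the 19 lines with 2 or more clones (46 clones), limma called 14 of 18 member windows between lines on the mean of both alleles, against 82.7% of all windows. With the form of library name as a block it called 15 of 18, against 71.0% of all windows. On the musculus minus CAST difference it called 1 of 18, against 17.7% of all windows. That window was 37.75 to 37.80 Mb in Pcdhg (limma adjusted p = 0.018), and it was not called without the line ATSS.BTSS.CTSS. Cell line, descent and handling cannot be told apart in the comparison of lines.

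Clones with and without COSN123 differed in the size of the allele difference over Pcdhb, while no difference in their mean RT at this locus passed a test. The musculus minus CAST difference over Pcdhb ran from −0.40 through a median of −0.25 to −0.12 in the 24 clones with COSN123, and from −0.32 through −0.17 to 0.08 in the 29 without. The groups overlapped, with means of −0.26 ± 0.08 and −0.16 ± 0.09. With minus without COSN123, the contrast was −0.10 (two-sided permutation test over clones, adjusted p = 0.0022 over 8 tests, which were the 4 intervals on the difference and on the mean of both alleles). With the cell line as the unit it was −0.12 (12 against 14 lines, permutation test, adjusted p = 0.0027). The lines with COSN123 are taken to share descent, so permuting clones or lines treats related clones as independent. The p values of this contrast therefore measure the spread between these clones or lines, and not between independently made deletions. Line values averaged −0.27 with COSN123 and −0.16 without it. The COSN123 line itself (clone A10) had −0.12, the highest of the 12 lines with it. COSN12, counted as without it, had −0.26, the lowest of the 14. Over all 22 windows the contrast was −0.05 (permutation test, adjusted p = 0.036). Over Pcdha it was −0.03 and over Pcdhg −0.06 (permutation test, adjusted p = 0.36 and 0.26). These tests were added after the group means had been seen.

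The form of library name moved with this grouping. Forms 1 and 2 hold 23 clones, all without COSN123, and forms 3 and 4 hold 13, all with it. Form 5 alone holds both groups, 11 clones with COSN123 and 6 without, and there the contrast over Pcdhb was −0.15 (exact permutation test, p = 0.016, adjusted p = 0.13). All lines with COSN123 in their name are also taken to descend from 1 clone. Of the lines counted as without it, CR13.4k and CR14.6k lack every OSN site of C too, and Z.B.C lacks C. Their mean musculus minus CAST differences over Pcdhb were −0.20, −0.25 and −0.11, in this order. The parts of deletion and descent in the contrast were not tested.

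On the mean of both alleles, the values over Pcdhb were −0.22 ± 0.23 with COSN123 and −0.24 ± 0.16 without it, and over Pcdha −0.01 ± 0.21 and 0.04 ± 0.20. None of the 4 intervals passed on that mean (permutation test over clones, adjusted p of 0.36 or more). In single windows limma called 0 of 21 members on the mean, against 1.23% of all windows, and the lowest adjusted p among members was 0.22 (2 of 21 at an unadjusted p under 0.05, against 13.35% of all windows). No member window was called on the musculus minus CAST difference either (limma, lowest adjusted p = 0.18, at 37.30 to 37.35 Mb), while 5 of 21 passed at an unadjusted p under 0.05, against 11.84% of all windows.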

How the data were processed

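Members, gene lists and tests were chosen with earlier results of these data known. The authors trimmed reads (Trim Galore, cutadapt), aligned them to N-masked mm10 with bowtie2, assigned them to alleles (SNPsplit), dropped duplicates (Samtools) and counted the rest per 50 kb window (bedtools). Tool versions are not given in the sources used here. The deposited values are log2 ratios of the early to the late fraction, scaled, quantile-normalized and then loess-smoothed over 300 kb by the authors. The table has 138 columns, 1 per allele and run. Repeat runs of 3 libraries were averaged and repeat cultures averaged per clone. The 5 libraries (10 samples) of the labels without a column were not analysed here. No 2 of the 132 profiles were identical (highest r 0.99).

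Windows with values in at least 75% of the clones were fitted with limma 3.58.1 in R (lmFit, eBayes, Benjamini-Hochberg over all windows). F tests between clones or lines used windows with a value in every library or clone of that fit. Interval means were tested by two-sided sign-flip permutation over clones (100000 resamples, exact below 10 clones), adjusted over 4 intervals, 3 pairs or 2 gene families. Clones with and without COSN123 were compared by permuting clones between the groups (exact with under 10 clones in a group), adjusted over 8 tests. Nothing states that clones are independent beyond their sorting as single cells, and COSN123 lines are taken to share descent. Library names in the labels are written in 5 forms, with 6 to 17 clones each, and each line has a single form, which may or may not mark a batch. Genes came from GENCODE vM21 and G+C content from GRCm38. Genes were named by a fixed rule: the first and last of each subcluster, the C-type genes, Taf7, Slc25a2 and 13 flanking genes, by the window that holds the start, besides windows with extreme values. The tests were tried on simulated data. The limma test between alleles recovered 52% of windows with a shift of 0.1 and 100% of those with 0.3. The F test between clones on the difference recovered 0% of windows with an added SD between clones of 0.1 and 62% with 0.3. Alternatives were another unit (line, library, COSN123 lines as 1), first runs only, profiles centred on their median or divided by their SD, single forms of library name, other minimums of clones, every sixth window, a minimum difference of 0.5, single alleles and leaving out each clone.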

Additional observations from a re-analysis of the deposited data

Results flagged for a closer look

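Of 36 sets of 4 or 5 samples examined, 2 held an extreme sample by Dixon's test at 95%, near the 1 in 20 that chance gives. Both were among the 4 cultures of COSN123 clone A10. The musculus value over all 22 windows was 0.37 in culture 2 and 0.31 in the nearest other culture. The musculus minus CAST difference over Pcdhg was −0.31 in culture 3, while the nearest other culture had 0.08. Over Pcdhb the same 4 cultures differed by −0.17 to −0.08.

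The musculus minus CAST difference varied between cell lines in 1 member window, 37.75 to 37.80 Mb, where Pcdhgb7, Pcdhga11, Pcdhgb8 and Pcdhga12 start (limma F test, adjusted p = 0.018). The 3 clones of ATSS.BTSS.CTSS had differences of 0.25 to 0.91 there, with a mean of 0.53, the highest mean of the 19 lines in this fit. The 4 clones of A.COSN123 ran from −0.23 to −0.12. Without ATSS.BTSS.CTSS, 0 of 18 member windows were called. With the form of library name as a block, 0 were called either.

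The musculus minus CAST difference also differed between clones with and without COSN123, by −0.0952 over Pcdhb (permutation test, adjusted p = 0.0022) and by −0.0465 over all 22 windows (permutation test, adjusted p = 0.036). The difference was below 0 over Pcdhb in 24 of 24 clones with COSN123 and 28 of 29 without. Forms of library name and descent moved with this grouping, and their part in the result was not tested beyond form 5.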

How the results depend on the processing

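The timing differences between subclusters and from the other gene families kept their direction and call under all 5 alternatives each and without any 1 clone. The musculus minus CAST difference did so for all 22 windows, Pcdha and Pcdhb under all 11 alternatives each, as did Pcdhb minus Pcdhg. Leaving out 1 clone gave −0.12 for all 22 windows (−0.123 to −0.117), −0.137 to −0.128 for Pcdha, −0.211 to −0.201 for Pcdhb and −0.012 to 0.0037 for Pcdhg. It gave 0.24 to 0.25 for Pcdha minus Pcdhb in timing, −1.09 to −1.07 for Pcdha minus Pcdhg, −1.34 to −1.32 for Pcdhb minus Pcdhg, 0.91 to 0.92 and −0.85 to −0.84 against olfactory receptor and Hox windows, and −0.020 to −0.015 for the spread. The allele difference between subclusters ran from 0.068 to 0.077 (Pcdha minus Pcdhb), −0.136 to −0.122 (Pcdha minus Pcdhg) and −0.208 to −0.196 (Pcdhb minus Pcdhg). Within single forms of library name, Pcdhg had a difference of −0.0936 in form 3 (exact permutation test, adjusted p = 0.031). Pcdha minus Pcdhb was 0.0509 in form 1 and 0.0408 in form 5, and Pcdha minus Pcdhg was −0.0680 in form 2, −0.02 in form 3 and −0.10 in form 4, none of them called. With minus without COSN123, the allele difference was −0.15 over Pcdhb and −0.0782 over all 22 windows in form 5 (exact permutation test, adjusted p = 0.13 and 0.20), no longer called. The spread contrast was −0.0033 on musculus alone and reversed to 0.0015 on CAST alone, neither called.

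Member windows called between the alleles numbered 15 of 21 over all clones, 9 in form 2, 8 in form 3, 2 of 4 with every sixth window and 0 with a minimum difference of 0.5, and 15 to 16 without 1 clone. Between clones, 0 were called on the difference, 12 on musculus, 10 on CAST and 13 on the mean of both, and 0 to 0 and 10 to 14 without 1 clone. Between lines, 14 were called on the mean, 2 of 3 with every sixth window, 1 on the difference, and 0 on the difference with forms as a block or without ATSS.BTSS.CTSS. Between lines with and without COSN123, 0 were called under all 6 alternatives, while the calls over all windows ran from 13 with the cell line as the unit to 1351 with forms as a block, against 489. With the replicate number as a block (replicate block), 0 member windows were called on the difference and 12 on the mean. Deviations of same-numbered cultures had correlations of −0.07 to 0.21 over 45 pairs of clones on the difference (1 pair over 0.1) and of −0.40 to 0.57 on the mean (12 over 0.1), and 4 and 6 of 10 clones correlated best with their own number. Not every pair was over 0.1, so the numbers were not taken to pair the samples. The cause of these changes was not tested, apart from fewer windows or clones in a fit. The smoothing leaves few independent windows, and depth is unknown.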
